A study of Sus scrofa with 14 samples.

Results

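The genes of 5 families of secreted or contact-dependent cell signals, WNT, FGF, BMP with TGF-beta, Hedgehog and Notch, were compared between the oxyntic mucosa (OXY) and the pyloric mucosa (PYL) of the young pig. Members were taken by their gene symbols. Any gene whose single symbol in the array annotation began as those of the ligands, receptors, secreted modulators and transcription factors of these families was included, and where a symbol had several rows its row of highest mean was used. This gave 109 of the 10882 named genes. Of these, 94 belonged to the 5 families and 15 were genes with other functions caught by the symbol pattern, such as LRP1 and TGFBI.

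Each of 7 unrelated crossbred (Large White × Landrace) male weaned pigs gave both mucosae, OXY from near the greater curvature and PYL from near the sphincter, so that 7 OXY and 7 PYL samples were hybridized on 14 porcine whole-transcript arrays. The pigs were 5 to 6 weeks old, weighed 11.1 kg on average, were caged individually and had eaten a post-weaning diet for 5 days before slaughter. No group was treated, and the sampled pieces were transmural according to the methods, so muscle, vessels and nerves could be part of them. The labels fitted the defining products of both regions, as ATP4A, the catalytic subunit of the proton pump, lay at 11.93 to 12.33 (log2 intensity) in OXY and 4.21 to 4.97 in PYL, and GAST, the gastrin gene, at 4.96 to 5.90 in OXY and 8.85 to 11.47 in PYL.

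The arrays fell into 2 sets, with array medians of 4.83 to 4.92 (log2) in pigs 1 to 3 and 5.63 to 5.73 in pigs 4 to 7, so an SD over 7 pigs contains the difference between the sets. The pyloric samples of pigs 4 and 7 stood apart. Their correlation over all rows (Spearman) was 0.989 with each other, against 0.954 to 0.965 with the pyloric samples of pigs 5 and 6, which had 0.991 between them. In both, the smooth muscle gene CNN1 (12.10 and 12.01, against 9.72 to 10.36 in the other 5 pyloric samples) was high, although another, ACTA2, was not (10.94 and 10.07, against 10.19 to 10.96). The epithelial keratin gene KRT8 (10.19 and 10.25, against 10.98 to 11.28) was low in both, although the epithelial junction gene TJP1 was not (10.15 and 10.11, against 8.97 to 9.85). Results that these 2 pigs moved are given below with and without them.

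The 5 pathways carry short-range messages between cells, in part between the epithelium and the connective tissue around the glands. WNT proteins bind Frizzled receptors with co-receptors such as LRP5 and are known to maintain gland stem cells, Hedgehog proteins made by gastric epithelial cells act mostly on the mesenchyme through SMO and the GLI factors, and BMP and TGF-beta ligands act through paired serine/threonine kinase receptors and SMAD proteins. FGF ligands act through receptor tyrosine kinases, and Notch receptors are cut after contact with a Delta or Jagged ligand on a neighboring cell and then switch on genes of the HES and HEY families. In the vessel wall, DLL4 and NOTCH4 are known as endothelial members of the Notch pathway.

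Differences were small as a rule. A change is given as OXY minus PYL on the log2 scale, from a limma fit blocked by pig. After the ± sign stands its moderated limma SE (n = 7 pigs), which also draws on the variance of all rows. A gene was called where its Benjamini-Hochberg p, adjusted across the 27460 rows of the array, was under 0.05. By this rule OXY had the higher level of 7 of the 109 members and PYL that of 6, which is 11.9% of them, and the same was true of 11.3% of all rows (6.88% in OXY and 4.46% in PYL). The share called was thus near that of all rows, and the 13 called members are described as single genes. The counts depended on single pigs, as the OXY count was 3 without pig 5 and 4 without pig 6, and the PYL count was 1 without pig 1, 2 without pig 3 or pig 6 and 3 without pig 5. The shares of all rows fell as well. For OXY they were 5.17% without pig 5 and 5.05% without pig 6. For PYL they were 2.86%, 2.87%, 3.07% and 2.51% without pigs 1, 3, 5 and 6. An unadjusted limma p under 0.05 was found for 36 of the 109 and for 25.6% of all rows. The median change of the 109 was 0.02, against -0.01 over all rows, and 69 of them changed by no more than 0.25. In bulk samples such as these, a lower level can come from fewer cells of a type or from less RNA per cell, which cannot be told apart.

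In none of the 109 members did the 7 OXY samples lie wholly above or below the 7 PYL samples, a pattern seen in 1.3% of all rows. Since the sets differed in level, the groups were also compared within each set. In 6 members, DLL4, NOTCH4, HES7, LRP1, GLI1 and GLI2, the OXY and PYL samples were apart in both sets in the same direction, against 6.24% of all rows. By pig, 11 members were higher in OXY in all 7 pigs and 5 in PYL, while 13% of all rows kept 1 direction in all 7 (7.94% in OXY and 5.06% in PYL).

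**Figure D1:**
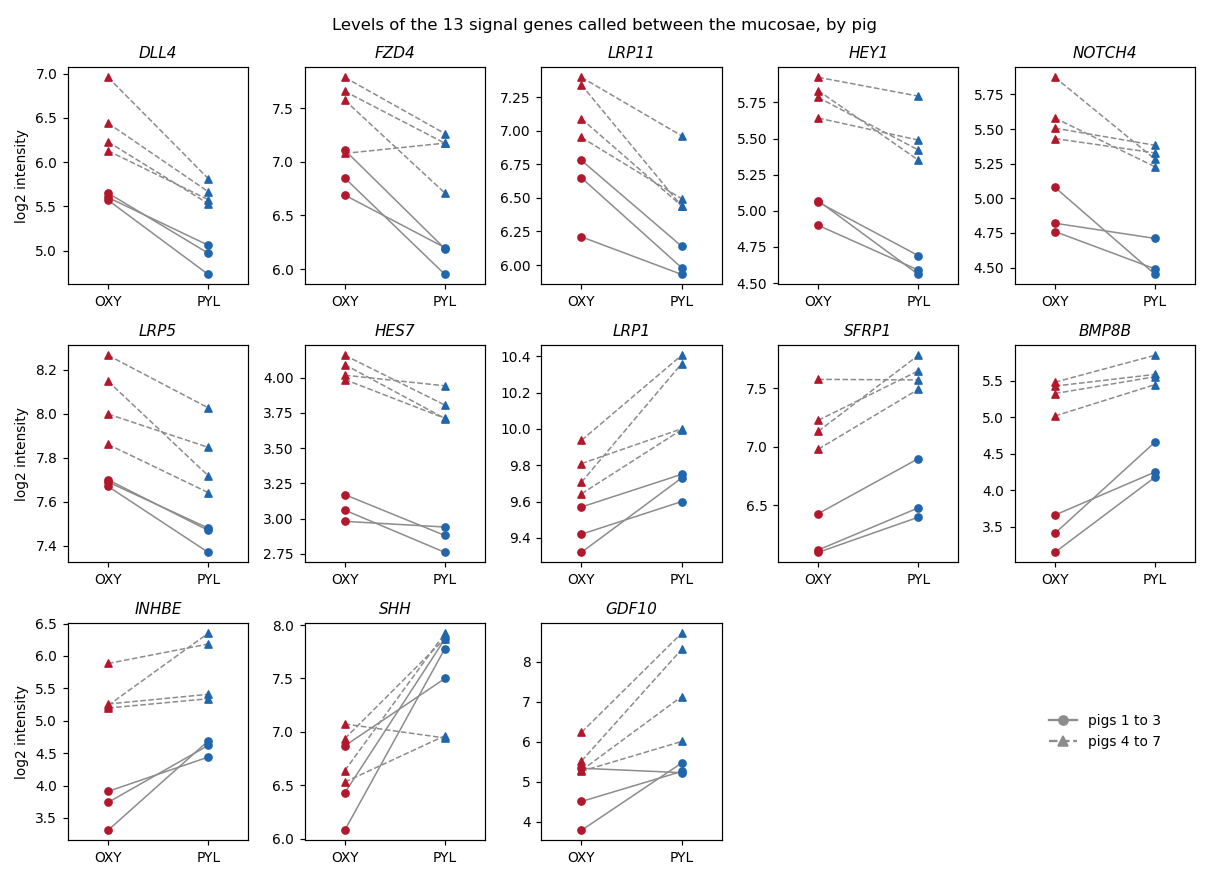
Log2 intensity of the 13 called signal genes in OXY (red) and PYL (blue), with a line for each pig (solid with circles for pigs 1 to 3, dashed with triangles for pigs 4 to 7). The lines of DLL4 and LRP11 fall to the right in all 7 pigs, while SHH and GDF10 lie higher in PYL in 6 of 7 pigs.

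The Notch family held 4 of the 7 members more expressed in OXY and none more expressed in PYL. It had 12 measured members, 10 of them with a change above 0, a median change of 0.18 and 6 with an unadjusted limma p under 0.05. The share called was 33.3%, against 11.3% of all rows, in a family chosen with these results known. Among the ligands, DLL4, a Delta ligand made by endothelial cells, was between 5.57 and 6.96 (median 6.13) in OXY and between 4.73 and 5.81 (median 5.53) in PYL. Its OXY level was above its PYL level in every pig, by 0.54 to 1.14, and the groups overlapped only across the sets of arrays, with 5.57 to 5.65 in OXY and 4.73 to 5.06 in PYL of pigs 1 to 3, and 6.13 to 6.96 in OXY and 5.53 to 5.81 in PYL of pigs 4 to 7. The change was 0.75 ± 0.08 (limma, n = 7 pigs, adjusted p = 0.00071), a 1.68-fold higher level in OXY. An exact two-sided permutation test over the 7 pigs gave p = 0.016, the smallest that 7 pigs allow. DLL4 was the only member called in both sets alone, with 0.69 in pigs 1 to 3 and 0.79 in pigs 4 to 7 (limma, adjusted p = 0.044 and 0.035).

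The other Notch ligands did not pass. JAG1, a Jagged ligand, had means of 8.25 ± 0.23 in OXY and 8.51 ± 0.34 in PYL (SD, n = 7 each), with a change of -0.26 (limma, adjusted p = 0.23). It was higher in PYL in 5 pigs, all but pigs 4 and 7, and without these 2 pigs the change was -0.43 (limma, adjusted p = 0.039). JAG2 and DLL3 had changes of 0.22 and 0.13.

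Of the receptors, NOTCH4, which is expressed mainly in endothelium, had 4.76 to 5.87 (median 5.43) in OXY and 4.45 to 5.38 (median 5.23) in PYL. All 7 pigs were higher in OXY, by 0.10 to 0.63, and within each set the groups did not overlap. The change of 0.31 ± 0.08 passed narrowly (limma, adjusted p = 0.0496), and the call was lost when any 1 of the 7 pigs was left out (limma, adjusted p = 0.05 to 0.121). NOTCH2, a receptor of many cell types, was at 7.10 to 8.46 (median 8.04) in OXY and 7.54 to 9.37 (median 8.24) in PYL, and its change of -0.41 ± 0.15 did not pass (limma, adjusted p = 0.13).

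Among the transcription factors that Notch switches on, HEY1, a target gene in endothelium and other tissues, ranged over 4.90 to 5.92 (median 5.64) in OXY and 4.56 to 5.79 (median 5.35) in PYL. It was higher in OXY in every pig, by 0.13 to 0.51, and the ranges overlapped, both mucosae being lower in pigs 1 to 3 than in pigs 4 to 7. The change was 0.33 ± 0.07 (limma, adjusted p = 0.014), and the call held without any 1 pig (highest adjusted p = 0.0461). HES7, best known from the segmentation clock of the embryo, lay among the 1 in 3 rows of lowest mean, with 2.98 to 4.16 (median 3.99) in OXY and 2.76 to 3.94 (median 3.71) in PYL. Its change of 0.25 ± 0.06 (limma, adjusted p = 0.039) had the same direction in 7 of 7 pigs, although it was lost without pig 1, 2, 4, 5 or 6 in turn (limma, adjusted p = 0.0799 to 0.109). HEYL, a relative of HEY1 known in vascular smooth muscle, was also higher in OXY in 7 of 7 pigs but did not pass, with means of 6.01 in OXY and 5.72 in PYL and a change of 0.29 ± 0.09 (limma, adjusted p = 0.075). HES2, HES3 and HEY2 had changes of 0.10, 0.05 and 0.03.

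Endothelial marker genes moved in the same direction as these Notch genes. All 5 measured markers of the 10 listed were more expressed in OXY, namely PECAM1 (0.43), VWF (0.64), KDR (1.17), TEK (0.91) and ENG (0.54), with limma adjusted p of 0.00025 for KDR to 0.038 for PECAM1. KDR, TEK and ENG were also called by the methods' repeated-measures test and without any 1 pig, while VWF and PECAM1 were not called by that test (adjusted p = 0.0847 and 0.0915). Here and below, that test was run on every row, unmoderated and with Benjamini-Hochberg over all rows. The methods applied theirs to preselected genes at P under 0.05 and describe no such adjustment. Without single pigs the VWF call was lost for pigs 1, 2, 3, 5 and 6 (limma, adjusted p = 0.0634 to 0.0813) and the PECAM1 call for pigs 1 to 6 (limma, adjusted p = 0.0559 to 0.102). Their summed intensity was 1475 to 3366 in OXY and 771 to 2249 in PYL. By pig, the median difference of the 5 markers was 0.65, 1.04, 0.89, 0.27, 0.97, 0.81 and 0.29 in pigs 1 to 7, above 0 in all. Their part in the changes of DLL4, NOTCH4 and HEY1 was not tested.

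Other genes of the Notch pathway, taken from a list of 32 of which 19 were measured, gave 2 calls (10.5%, against 11.3% of all rows), both for PYL, and 4 at an unadjusted limma p under 0.05. RBPJ, the DNA-binding factor that Notch acts through, had 7.98 to 9.36 (median 9.08) in OXY and 8.33 to 9.75 (median 9.48) in PYL. It was higher in PYL in every pig, by as little as 0.02 in one of them, with a change of -0.36 ± 0.07 (limma, adjusted p = 0.014). ADAM10, a protease that cuts Notch receptors and many other membrane proteins, had a change of -0.63 ± 0.14 (limma, adjusted p = 0.023), and its call was lost without pig 1, 2, 3, 5 or 6 in turn (limma, adjusted p = 0.0509 to 0.066).

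**Figure D2:**
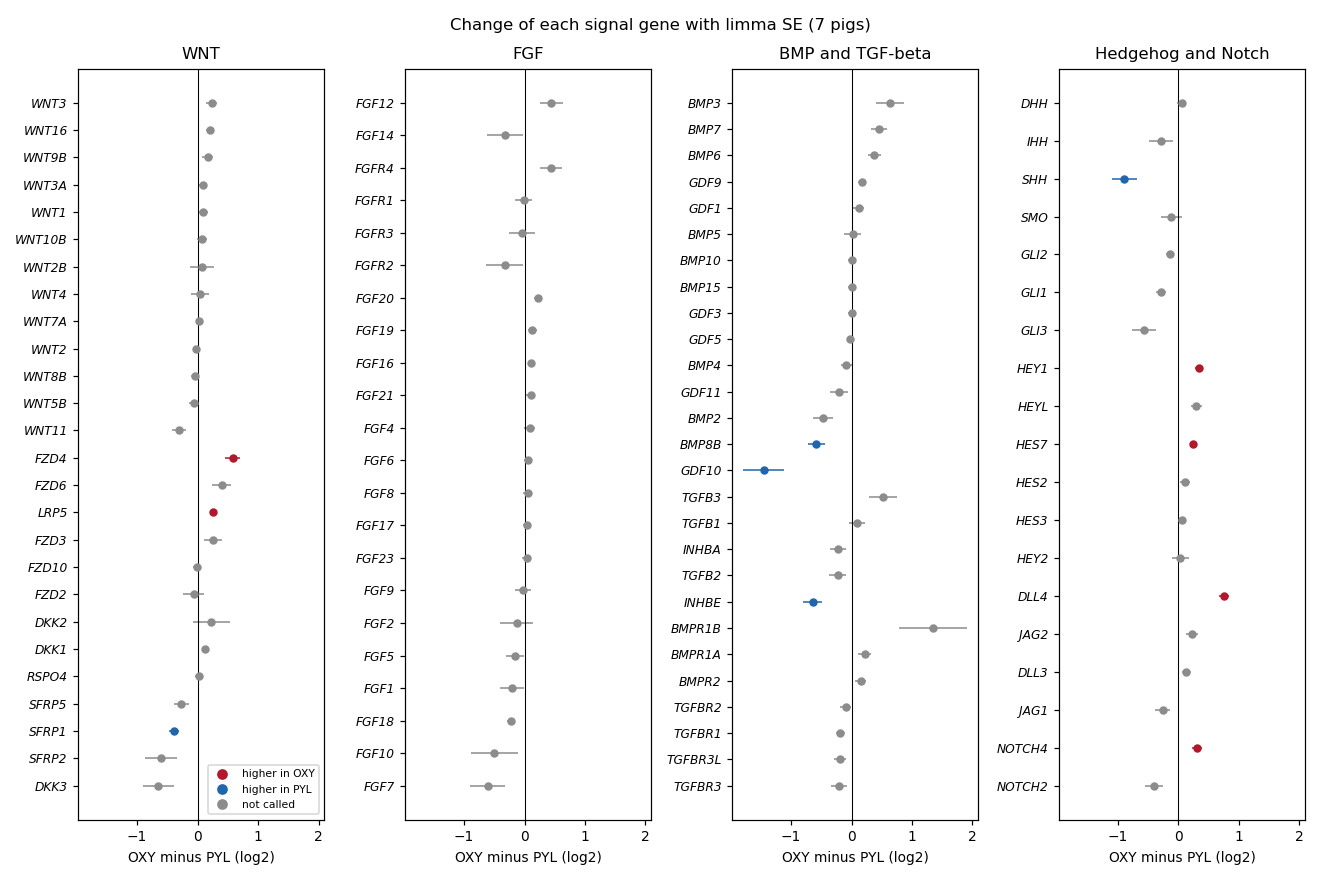
Change, OXY minus PYL in log2, of the 94 members of the 5 families, with limma SE as bars (n = 7 pigs), in 4 panels by family with ligands, receptors and other roles grouped. Red marks genes more expressed in OXY and blue genes more expressed in PYL, and grey genes were not called, among them all 22 FGF members and BMPR1B at 1.35 with the widest bar.

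In the WNT family, 2 of 6 receptors were more expressed in OXY and 1 of 7 secreted modulators in PYL, while no ligand was called. The family had 26 members with a median change of 0.06, of which 2 were called for OXY and 1 for PYL (11.5%, against 11.3% of all rows). FZD4, a Frizzled receptor with known roles in blood vessels, had 6.69 to 7.79 (median 7.11) in OXY and 5.95 to 7.26 (median 6.71) in PYL. It was higher in OXY in 6 of 7 pigs and differed by -0.10 in pig 7, with the level of pigs 4 to 7 above that of pigs 1 to 3 in PYL and, but for pig 7, in OXY. Its change of 0.58 ± 0.12 (limma, adjusted p = 0.018) was a 1.50-fold higher level in OXY, and without pigs 4 and 7 it was 0.73 (limma, adjusted p = 0.0032). The call was lost without pig 3 or pig 5 (limma, adjusted p = 0.0543 and 0.0545). The endothelial markers changed in the same direction as FZD4, as they did for DLL4, although in pig 7 their median difference was 0.29 and that of FZD4 -0.10. Their part in the change of FZD4 was not tested.

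LRP5, the co-receptor that joins Frizzled in binding WNT, was between 7.67 and 8.27 (median 7.86) in OXY and between 7.37 and 8.03 (median 7.64) in PYL. Every pig was higher in OXY, by 0.15 to 0.43, and the ranges overlapped. The change was 0.25 ± 0.05 (limma, adjusted p = 0.018), lost without pig 5 or pig 6 (limma, adjusted p = 0.051 and 0.0519). The other Frizzled genes, FZD2, FZD3, FZD6 and FZD10, had changes of -0.06, 0.25, 0.40 and -0.01 and were not called.

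SFRP1, a secreted protein that binds WNT ligands and in most settings blocks them, was more expressed in PYL. It had 6.10 to 7.58 (median 6.98) in OXY and 6.40 to 7.78 (median 7.49) in PYL, with PYL above OXY in 6 pigs and equal levels in pig 7 to 2 decimals. The change was -0.39 ± 0.08 (limma, adjusted p = 0.017), with -0.38 in pigs 1 to 3 and -0.39 in pigs 4 to 7, and the call was lost without pig 1 or pig 5 (limma, adjusted p = 0.0501 and 0.051). SFRP2, a relative with a second row of like change, was at 8.15 to 10.60 in OXY and 9.38 to 11.10 in PYL, and its change of -0.60 ± 0.27 did not pass (limma, adjusted p = 0.20) with pig 2 at 0.97 and pig 1 at -1.34. DKK3, a secreted protein of the Dickkopf family, had -0.65 ± 0.25 (limma, adjusted p = 0.15), the largest change among the 7 secreted modulators, and its pyloric levels in pigs 4 and 7 were 8.95 and 8.77.

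The 13 WNT ligands gave 0 calls by limma and by the methods' repeated-measures test, against 11.3% and 7.37% of all rows. An unadjusted limma p under 0.05 was found for 3 of them. For 12 of them the change was within 0.25, and 6 lay among the 1 in 3 rows of lowest mean. WNT2B, a ligand known from mesenchyme, was at 6.12 to 7.29 (median 6.90) in OXY and 6.20 to 7.71 (median 6.45) in PYL, with a change of 0.07 ± 0.20 and 4 pigs higher in OXY against 3 in PYL. WNT11, which acts mostly outside the beta-catenin branch, had the largest change of the ligands, -0.30 ± 0.11 (limma, adjusted p = 0.14), and was higher in PYL in 6 of 7 pigs.

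Of 39 further WNT pathway genes on a list, 25 were measured, and 3 were called (12%, against 11.3% of all rows), each higher in PYL in 7 of 7 pigs. ROR1, a receptor tyrosine kinase that binds WNT proteins, had 4.70 to 7.84 (median 7.05) in OXY and 5.82 to 8.16 (median 7.94) in PYL, with a change of -0.85 ± 0.16 (limma, adjusted p = 0.010). The levels of the 2 mucosae overlapped widely, and the differences within pigs ran between -1.53 and -0.16. VANGL1, a planar cell polarity protein, changed by -0.40 ± 0.08 (limma, adjusted p = 0.015), and APC, a scaffold of the complex that degrades beta-catenin, by -0.31 ± 0.06 (limma, adjusted p = 0.011). All 3 calls held without any 1 pig.

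SHH, the Hedgehog ligand of the gastric epithelium, was more expressed in PYL. It was at 6.08 to 7.07 (median 6.64) in OXY and 6.94 to 7.92 (median 7.78) in PYL, 1.87-fold higher in PYL. Of the pyloric samples, 5 lay between 7.50 and 7.92, above all 7 OXY samples, and those of pigs 4 and 7 had 6.96 and 6.94. The change was -0.90 ± 0.21 (limma, adjusted p = 0.026; exact two-sided permutation p = 0.031), with differences of -0.63, -1.70, -1.44, -0.43, -0.94, -1.29 and 0.13 in pigs 1 to 7. Without pigs 4 and 7 it was -1.20 (limma, adjusted p = 0.0028). The methods' test, with p adjusted here over all rows, did not call SHH (adjusted p = 0.0862). When single pigs were left out, the call was lost for pigs 1, 2, 3, 5 and 6 (limma, adjusted p = 0.0518 to 0.0781).

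IHH, another Hedgehog ligand of gut epithelium, had means of 7.27 in OXY and 7.56 in PYL and was not called, with a change of -0.29 ± 0.20 (limma, adjusted p = 0.42). Its differences were below 0 in pigs 1, 2, 3, 5 and 6, between -0.93 and -0.18, and above 0 in pigs 4 and 7 with 0.35 and 0.70, the pigs in which pyloric SHH was also lowest. Without these 2 pigs the change was -0.62 (limma, adjusted p = 0.014). DHH, the ligand known from testis and nerve sheath, lay among the 1 in 3 rows of lowest mean and had a change of 0.05 ± 0.08.

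The receiving side of the Hedgehog pathway did not pass at the threshold. GLI1, a transcription factor and itself a target gene of the pathway, had 4.66 to 5.60 (median 5.34) in OXY and 5.12 to 5.71 (median 5.62) in PYL. It was higher in PYL in 7 of 7 pigs and apart in both sets, with 4.66 to 4.89 in OXY and 5.12 to 5.48 in PYL of pigs 1 to 3, and 5.34 to 5.60 in OXY and 5.62 to 5.71 in PYL of pigs 4 to 7. The change of -0.29 ± 0.08 had an adjusted p of 0.059 (limma), with an exact permutation p of 0.016, and without pigs 4 and 7 it was -0.39 (limma, adjusted p = 0.026). A second GLI1 row had -0.36 (limma, adjusted p = 0.10). GLI2, the main activator of the pathway, was higher in PYL in 7 of 7 pigs by a small margin, with a change of -0.14 ± 0.06 (limma, adjusted p = 0.18). GLI3, which acts mostly as a repressor, had -0.57 ± 0.20 (limma, adjusted p = 0.11), with pyloric levels of 7.35 and 7.43 in pigs 4 and 7 against a pyloric median of 6.27. SMO, the membrane protein that passes the signal on, had -0.12 ± 0.18 (limma, adjusted p = 0.72).

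Over the 7 Hedgehog members, 6 changes were below 0, with a median of -0.29, and 1 was called. Of 17 other genes of the pathway on a list, 8 were measured and 0 were called by limma or by the methods' test, with 1 at an unadjusted limma p under 0.05. The share of calls was 14.3% of the 7 members, against 11.3% of all rows. The epithelial markers, of which 7 of 10 listed were measured, gave 0 calls by limma or by the methods' test, 1 at an unadjusted limma p under 0.05 and a median change of -0.18. Their summed intensity was 6632 to 13696 in OXY and 7499 to 13122 in PYL, and their median difference was 0.51 in pig 4 and 1.01 in pig 7, against -0.44 to -0.05 in the other pigs. Without pigs 4 and 7, limma called 3 of these 7 for PYL, namely EPCAM (-0.66), KRT18 (-1.03) and KRT8 (-0.50), with adjusted p of 0.0026, 0.0023 and 0.043, in the same direction as SHH and IHH in that fit. Their part in the values of SHH and IHH was not tested.

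**Figure D3:**
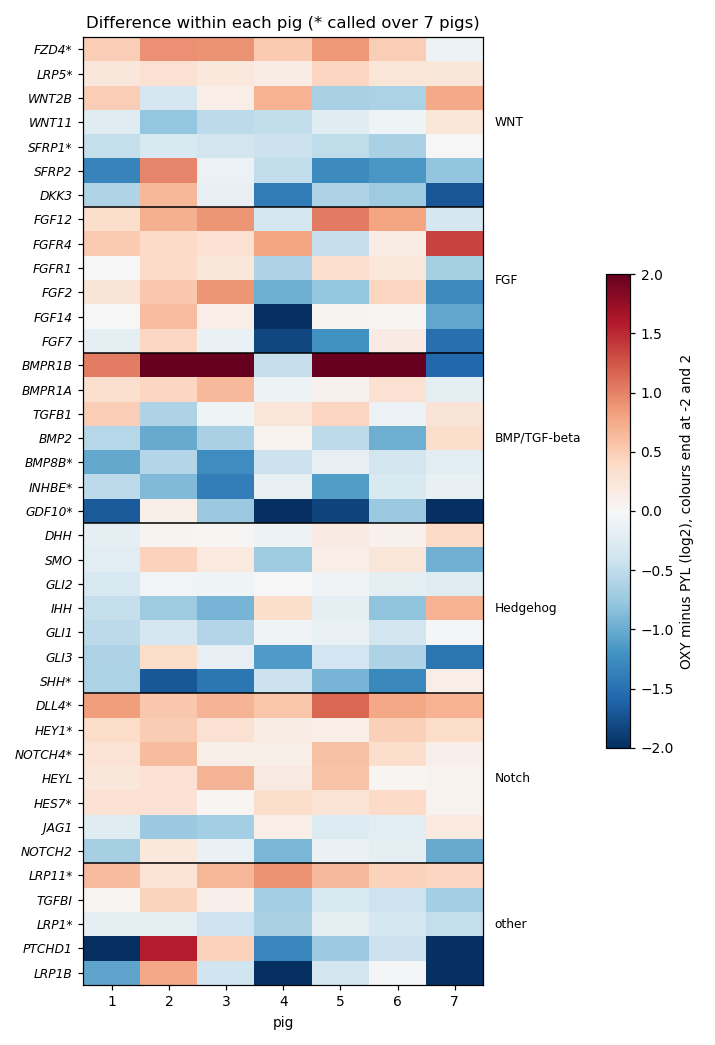
Difference OXY minus PYL (log2, colour, red above 0 and blue below) in each of the 7 pigs (columns) for 39 members named by a fixed rule (lines, by family), with an asterisk for the 13 called genes. Colours end at -2 and 2, and columns 4 and 7 turn from the other columns for BMPR1B, IHH, FGF14 and FGF12.

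In the BMP and TGF-beta family, 3 ligands were more expressed in PYL and none in OXY, out of 27 members with a median change of 0.01, of which 10 had an unadjusted limma p under 0.05. The share called was 11.1%, against 11.3% of all rows. GDF10, also called BMP3B, had the largest change of all called members. It was at 3.79 to 6.24 (median 5.29) in OXY and 5.23 to 8.71 (median 6.01) in PYL, a 2.74-fold higher level in PYL. The pyloric samples of pigs 4 and 7 were highest, at 8.71 and 8.31, followed by pig 5 with 7.13, and in pig 2 the mucosae differed by 0.11 in the other direction. The change was -1.45 ± 0.33 (limma, adjusted p = 0.026), with -0.77 in pigs 1 to 3 and -1.96 in pigs 4 to 7. It was -0.98 without pigs 4 and 7 (limma, adjusted p = 0.059), and the call was also lost without pig 1, 4 or 5 alone (limma, adjusted p = 0.0618 to 0.0722).

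BMP8B, a BMP ligand best known from germ cells and brown fat in mice, had 3.15 to 5.48 (median 5.02) in OXY and 4.18 to 5.85 (median 5.45) in PYL. All 7 pigs were higher in PYL, by 0.16 to 1.25, and the larger differences were those of pigs 1 to 3. Its change was -0.58 ± 0.14 (limma, adjusted p = 0.030). Another row carried the symbols of BMP8A and BMP8B together, so probes of this near-identical pair may detect both and the gene is uncertain. INHBE, an activin subunit gene known from liver, was at 3.31 to 5.88 (median 5.20) in OXY and 4.44 to 6.35 (median 5.34) in PYL, higher in PYL in 7 of 7 pigs. Its change of -0.64 ± 0.16 (limma, adjusted p = 0.038) was lost without pig 1, 2, 3, 5 or 6 (limma, adjusted p = 0.0606 to 0.0986), as that of BMP8B was without pig 1, 2, 3, 4 or 6 (limma, adjusted p = 0.0549 to 0.0798).

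BMP2, a ligand with roles in gut smooth muscle and epithelium, was not called, with means of 8.35 in OXY and 8.82 in PYL and a change of -0.47 ± 0.17 (limma, adjusted p = 0.12). Both of its rows had the same sign, and without pigs 4 and 7 the change was -0.75 (limma, adjusted p = 0.0032). BMP4, the main mesenchymal BMP of the gut, had -0.09 ± 0.09. BMP6 had 3 rows that disagreed, with 0.38 (limma, adjusted p = 0.061) for the row of highest mean and 0.47 and -0.76 for the others (limma, adjusted p = 0.028 and 0.0084), so no direction is given for it. TGFB1, the first known TGF-beta cytokine, had 0.09 ± 0.13 (limma, adjusted p = 0.74).

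Of the receptors, 0 of 7 were called by limma (11.3% of all rows) or by the methods' test, with 2 at an unadjusted limma p under 0.05. BMPR1B, a type I BMP receptor, varied most. In OXY it had 7.46 to 8.58 (median 7.88). In PYL it was 5.06 to 6.43 in 5 pigs, but 9.04 and 9.29 in pigs 4 and 7, above every OXY sample. Its change over 7 pigs was 1.35 ± 0.56 (limma, adjusted p = 0.17), and without these pigs 2.30 (limma, adjusted p = 0.0016), so 2 pyloric samples decided the result. A second BMPR1B row had 0.76 (limma, adjusted p = 0.29). BMPR1A, another type I receptor, had 0.22 ± 0.10 (limma, adjusted p = 0.24).

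Other genes of the BMP and TGF-beta pathways gave 4 calls for OXY and 3 for PYL, among 29 measured of 47 listed (24.1%, against 11.3% of all rows). Only 1 of the 29 lay among the 1 in 3 rows of lowest mean, and with those rows left out limma called 16.9% of the rest. For OXY, SMAD6, an inhibitory SMAD that BMP signals switch on, had 7.31 to 8.14 (median 7.65) in OXY and 6.45 to 7.44 (median 6.97) in PYL, higher in OXY in 7 of 7 pigs, with a change of 0.80 ± 0.13 (limma, adjusted p = 0.0068). SMAD9, a BMP-activated SMAD, changed by 0.94 ± 0.24 (limma, adjusted p = 0.037), above 0 in 5 of 7 pigs, and by 1.35 without pigs 4 and 7 (limma, adjusted p = 0.00018), although single pigs 1, 2, 3, 5 and 6 each ended the call (limma, adjusted p = 0.0785 to 0.102). ENG, the endothelial co-receptor endoglin counted above among the vessel markers, changed by 0.54 ± 0.06 (limma, adjusted p = 0.0012), and TWSG1 was the other call. For PYL, ACVR1C (ALK7), a type I receptor for activin-like ligands, was the only pathway gene named here with separate groups, at 3.72 to 4.12 in OXY and 4.41 to 5.79 in PYL, and its change was -1.31 ± 0.16 (limma, adjusted p = 0.0015). CHRDL1, a secreted BMP antagonist, changed by -0.62 ± 0.11 (limma, adjusted p = 0.0084), and SMAD1, a BMP-activated SMAD, by -0.44 ± 0.10 (limma, adjusted p = 0.022), the last lost without pig 1 or pig 6 (limma, adjusted p = 0.0563 and 0.0507).

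None of the 22 FGF members was called by limma in the arrays as deposited or by the methods' test, and 4 had an unadjusted limma p under 0.05. Of all rows, limma called 11.3% and the methods' test 7.37%, and 25.6% had an unadjusted limma p under 0.05. FGF20, a secreted ligand of low level (2.94 to 3.83 in OXY and 2.68 to 3.68 in PYL), was higher in OXY in 7 of 7 pigs, and its change of 0.23 ± 0.06 (limma, adjusted p = 0.059) passed after centring or quantile normalization of the arrays or with an intensity trend (limma, adjusted p = 0.026, 0.044 and 0.041). The median change was 0.01, 16 of the changes were within 0.25, and 13 of the genes lay among the 1 in 3 rows of lowest mean. FGF7, a mesenchymal ligand that acts on epithelium, had the largest change of the secreted ligands, with 5.38 to 6.98 (median 6.54) in OXY and 5.51 to 8.81 (median 6.65) in PYL. Its highest levels were the pyloric ones of pigs 4 and 7, 8.81 and 8.38, and the change of -0.61 ± 0.28 did not pass (limma, adjusted p = 0.22). FGF2, basic fibroblast growth factor, had 6.42 to 7.91 in OXY and 5.54 to 8.88 in PYL and a change of -0.13 ± 0.27, with 4 pigs higher in OXY and 3 in PYL.

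Among the FGF receptors, FGFR1, a receptor common in mesenchyme, had means of 7.60 in OXY and 7.62 in PYL (change -0.02 ± 0.15, limma, adjusted p = 0.96). FGFR4 had the largest change, 0.43 ± 0.18 (limma, adjusted p = 0.18), and was higher in OXY in 6 of 7 pigs. FGF12 and FGF14, homologs that stay inside the cell and bind sodium channels, had changes of 0.44 ± 0.19 and -0.33 ± 0.30. FGF12 was the only FGF member called without pigs 4 and 7, with 0.75 (limma, adjusted p = 0.0041), at a level of 2.37 to 4.29 over the 14 samples.

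Of 20 other genes of the FGF pathway on a list, 13 were measured, and 2 were called (15.4%, against 11.3% of all rows), both for OXY. FLRT3, a membrane protein that binds FGF receptors, had 9.80 to 10.75 (median 10.37) in OXY and 8.94 to 10.39 (median 9.34) in PYL. All 7 pigs were higher in OXY, by 0.34 to 1.16, and the change was 0.74 ± 0.11 (limma, adjusted p = 0.0035). SPRY2, an inhibitor that FGF signals switch on, had 7.74 to 8.47 (median 8.22) in OXY and 7.49 to 8.05 (median 7.88) in PYL, with a change of 0.38 ± 0.05 (limma, adjusted p = 0.0028). Both calls held without any 1 pig. Over the 5 pathway lists together, 6 of 94 measured genes were called for OXY and 8 for PYL, 14.9% of them against 11.3% of all rows. Of the 94, however, only 6 lay among the 1 in 3 rows of lowest mean. With those rows left out, limma called 16.9% of the rest, and the list calls were again 6 and 8. The share of the lists was thus not above that of rows outside the lowest ones. The 11.3% beside the single lists has the same limit.

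The 15 other genes caught by the symbol pattern gave 2 calls (13.3%, against 11.3% of all rows), both of the LDL receptor family. LRP11, a membrane protein not known as a WNT co-receptor, was at 6.21 to 7.40 (median 6.95) in OXY and 5.93 to 6.96 (median 6.44) in PYL. It was higher in OXY in 7 of 7 pigs, by 0.28 to 0.90. Its change of 0.58 ± 0.08 (limma, adjusted p = 0.0025) kept its call without any 1 pig, as only DLL4 and HEY1 did besides it among the 13. LRP1, an endocytic receptor of many cell types, had 9.32 to 9.94 (median 9.64) in OXY and 9.60 to 10.41 (median 10.00) in PYL. The change was -0.35 ± 0.07 (limma, adjusted p = 0.018), with PYL higher in 7 of 7 pigs and the groups apart in both sets, and it was lost without pig 3 or pig 6 (limma, adjusted p = 0.0507 and 0.0517) and without pigs 4 and 7 together (-0.26, limma, adjusted p = 0.058). TGFBI, a matrix protein, PTCHD1, a gene with a Patched-like domain, and LRP1B, a relative of LRP1, had changes of -0.21, -0.91 and -0.95 and were not called.

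Levels in the pyloric samples of pigs 4 and 7 differed from those of pigs 5 and 6 by a wide margin in 13 members. In 9 of the 109 (8.26%, against 3.08% of all rows) the samples of pigs 4 and 7 both exceeded those of pigs 5 and 6 by at least 1 (log2), namely BMPR1B, DKK2, DKK3, FGF14, FGF2, GDF10, LRP1B, LRP3 and PTCHD1. In 4 members (3.67%, against 2.10% of all rows), BMP3, FGFR4, FZD6 and IHH, they were lower by as much. In OXY the same comparison gave 0 and 0 members, against 0.058% and 0.033% of all rows. Without these pigs, limma called 10 members for OXY and 10 for PYL, against 6.71% and 5.98% of all rows. Calls gained were BMPR1A, BMPR1B, FGF12 and TGFB3 for OXY and BMP2, GLI1, IHH, JAG1, LRP4 and TGFBR1 for PYL, and those lost were HES7, GDF10 and LRP1.

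Some smooth muscle markers were among the genes that set these samples apart. CNN1, TAGLN and SMTN were highest in the pyloric samples of pigs 4 and 7, where SMTN had 9.17 and 9.18 against 8.03 to 8.32 in the other 5. ACTA2 ran the other way, with OXY minus PYL of 0.42 and 0.55 in these pigs, and MYLK differed little, with 0.0029 and -0.35. Of 10 listed, 5 were measured and 0 were called by limma or by the methods' test, with 2 at an unadjusted limma p under 0.05, and the summed intensity was 2487 to 7532 in OXY and 3580 to 10345 in PYL. Their median difference was -0.86, 0.73, 0.16, -0.75, -0.21, -0.15 and -1.82 in pigs 1 to 7. In the same order DKK3 had -0.60, 0.66, -0.16, -1.40, -0.62, -0.71 and -1.71. LRP1B had -1.06, 0.77, -0.40, -2.30, -0.37, -0.04 and -3.26. In both genes, as in the muscle median, pig 2 stood highest and pig 7 lowest. The median of the 6 fibroblast markers had the same highest and lowest pig, with 0.51 in pig 2 and -0.63 in pig 7. The part of muscle or fibroblasts in these values was not tested.

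**Figure D4:**
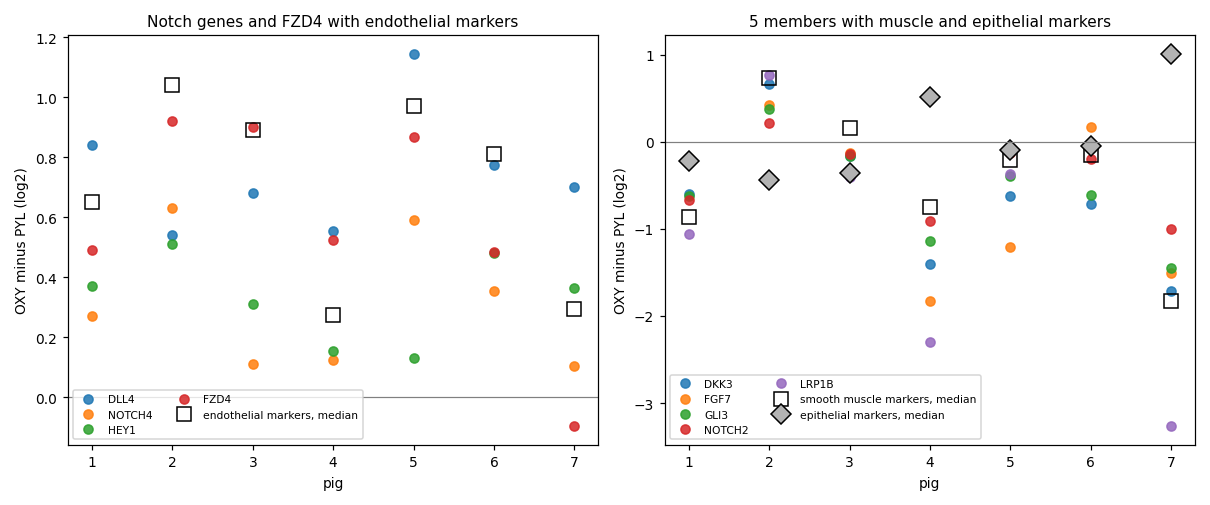
Difference OXY minus PYL (log2) in each of the 7 pigs for members (coloured points) beside the median of cell type markers (open squares and grey diamonds). Left, DLL4, NOTCH4, HEY1 and FZD4 with the 5 endothelial markers, whose median is above 0 in all pigs; right, DKK3, FGF7, GLI3, NOTCH2 and LRP1B, chosen after their values were seen, with smooth muscle and epithelial markers, which part most in pig 7 (-1.82 and 1.01).

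Of the other cell types looked at, fibroblast markers (6 measured of 10 listed) had a median change of -0.20 and 0 calls by limma or by the methods' test, with 0 at an unadjusted limma p under 0.05. Enteric neuron and glia markers (5 of 11) had a median of -0.05 and 0 calls by either test, with 1 at an unadjusted limma p under 0.05. Markers of interstitial cells of Cajal (2 of 3) had a median of -1.04 with 1 call, ANO1 for PYL (-1.48, limma, adjusted p = 0.0016), and leukocyte markers (9 of 10) a median of -0.27 with 1 call for PYL. All 6 parietal cell markers and all 3 chief cell markers were more expressed in OXY, with medians of 6.09 and 0.90. Gastric mucous cell markers (4 of 7) had a median of -0.05 with 0 calls by either test and 1 at an unadjusted limma p under 0.05, and 3 of 5 pyloric endocrine markers were more expressed in PYL, with a median of -2.02.

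The called members were seen in nearly every pig. Their direction was kept by all 13 in pigs 1, 3, 4, 5 and 6, by 12 in pig 2 and by 10 in pig 7, a count that the choice of the called genes itself makes high. The median size of their differences, in the called direction, was between 0.43 and 0.67 in pigs 1 to 6 and 0.22 in pig 7.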

How the data were processed

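Total RNA of 7 OXY and 7 PYL samples was hybridized on porcine whole-transcript arrays. The authors processed the scans by Robust Multichip Analysis, and what they deposited are linear intensities, summarised per transcript row. Software versions are not given in the sources used here. Here the intensities were log2-transformed and not normalized again. The annotation gave 1 symbol to 11939 of 27460 rows, several to 416 and none to 15105, and 103 of the 109 members were matched to RefSeq by gene identifier.

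Every row was tested with limma 3.58.1 in R 4.3.3 (two-sided, moderated, Benjamini-Hochberg over all rows, threshold 0.05), with the pig as a block because both mucosae came from each pig and the methods treat the pig as the repeated measure. The deviations of both arrays of a pig from their group means had correlations over rows of 0.02 (pig 7) to 0.62 (pig 4). Within the sets they were -0.03 to 0.16 in pigs 1 to 3 and -0.01 to 0.62 in pigs 4 to 7. A shared deviation was thus not seen in every pig. The exact permutation test flipped the signs of the 7 differences. The fit was tested on simulated data. The number of arrays limits the precision.

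The members, the 5 pathway lists and the 11 marker lists were chosen with earlier results of these data known. Named by rule were all called members, in each family and role the gene with the highest mean and that with the largest change, the Hedgehog genes, and up to 3 called genes per pathway list and direction. Other genes with values in the text were chosen after their values were seen. Alternatives were no block, centred or quantile-normalized arrays, a filter on low rows, an intensity trend with a robust prior, array weights, the methods' repeated-measures test, the mean of all rows of a symbol, each set alone, and leaving out pigs. The repeated-measures alternative was unmoderated and adjusted over all rows, an adjustment that the methods do not describe. Promoter motifs and sequences were not analysed here.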

Additional observations from a re-analysis of the deposited data

How the results depend on the processing

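Over all rows the limma fit called 1888 rows for OXY and 1226 for PYL, and among the members 7 and 6. Without the pig block, 326 rows were called for OXY and 150 for PYL, with 0 members for OXY and 1 (SHH) for PYL, and 0 and 1 (ACVR1C) of the other pathway genes. In pigs 1 to 3 alone, 665 and 562 rows, 5 and 2 members and 1 and 2 pathway genes were called for OXY and PYL, and in pigs 4 to 7 alone 686 and 289 rows, 1 and 1 members and 1 and 1 pathway genes. These fits have fewer samples. The methods' test called 1386 and 637 rows and 6 and 2 members, losing BMP8B, FZD4, GDF10, INHBE, NOTCH4 and SHH (adjusted p = 0.0593 to 0.103) and gaining DKK1 for OXY (adjusted p = 0.0204). Centring each array gave 9 members for OXY and 5 for PYL, with 8.39% and 3.6% of all rows, against 6.88% and 4.46% before centring. Without pigs 4 and 7, 10 members were called in each direction, with 6.71% of all rows for OXY and 5.98% for PYL. With 1 pig left out, OXY calls were 1386 to 1705 rows, 3 to 7 members and 4 to 5 pathway genes, and PYL calls 690 to 1232 rows, 1 to 9 members and 6 to 9 pathway genes. The rows called for PYL were 784 without pig 1, 787 without pig 3 and 690 without pig 6. Of 931 values of 52 named genes under the alternatives, 25 in 10 genes turned sign, none of them in a called gene, and the cause was not tested. In pigs 1 to 3 alone these were DHH (-0.043), FGF14 (0.25), FGF2 (0.56), FGF7 (0.033), FGFR1 (0.20), SMO (0.15), TGFB1 (-0.070) and TGFBI (0.19), and in pigs 4 to 7 alone IHH (0.017). Without pigs 4 and 7 they were FGF14 (0.17), FGF2 (0.27), FGFR1 (0.23), SMO (0.16) and WNT2B (-0.20), with array weights FGFR1 (0.060) and WNT2B (-0.071), and with centred arrays FGFR1 (0.026). With 1 pig left out, FGF2 ran between -0.30 and 0.060, FGFR1 between -0.082 and 0.091, SMO between -0.22 and 0.019, and WNT2B between -0.049 and 0.19. The call of NOTCH4 was lost when limma used an intensity trend and a robust prior, and that of INHBE with centred or quantile-normalized arrays.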
